A study of Mus musculus with 6 samples.

Results

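The cytosolic ribosomal protein genes were examined in RNA-seq libraries of mouse intestinal crypts, 3 from WT mice and 3 from Mtg16-/- mice. A row of the deposited table was taken as a member when its symbol starts with Rpl or Rps and a digit, or is Rplp0, Rplp1, Rplp2 or Rpsa. The ribosomal protein S6 kinases and Rps19bp1 were not members. This gave 94 of the 24736 rows of the table. They comprise 46 genes for proteins of the large subunit and 31 for proteins of the small subunit, called core genes here, along with 9 paralogs, 6 rows with the name of a pseudogene and 2 other rows, Rpl32l and Rpl37rt. The rule uses symbols and no measured value.

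The mice of both genotypes were males of 12 weeks, and each library came from 1 mouse. Neither genotype was treated, the strain is not given in the sources used here, and the crypts of each mouse came from the gut as a whole. The labels call the knockout CRISPR-induced, while the methods of the study describe Mtg16-/- mice received as a gift, and neither names a promoter or cell type to which the loss is limited. MTG16 is a transcriptional co-repressor encoded by Cbfa2t3. Cbfa2t3 had 3.67, 6.69 and 4.52 TPM, the transcript share that RSEM estimates per length and scales to the same total in every library, in WT and 4.62, 6.43 and 3.23 TPM in Mtg16-/-. These ranges overlapped, so the level of the targeted gene did not tell the genotypes apart and every direction given here rests on the labels. The epithelial gene Epcam lay between 1087 and 1375 TPM in the 6 libraries, and the leukocyte gene Ptprc between 4.91 and 17.1 TPM.

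The ribosome consists of a small subunit, which reads the mRNA, and a large subunit, which forms the peptide bonds, and each holds one copy of nearly every ribosomal protein. Their mRNAs are among the most abundant in dividing cells, are short, and typically begin with a cytosine followed by a run of pyrimidines, the 5' terminal oligopyrimidine motif through which mTOR and LARP1 control their translation. In the intestine, crypt cells divide and build ribosomes at a high rate, while differentiated enterocytes of the villus devote more of their mRNA to absorption. Genes of this family have left many processed copies in the mouse genome, and reads from a parent gene and its copy can be hard to separate.

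The mRNA start could be inspected for 57 of the 77 core genes in the RefSeq promoter table (GRCm38.p6). A run of at least 5 pyrimidines opening with a cytosine was counted when it lay within 10 bases of an annotated start. Only the part of a run inside this limit was counted, so genes with a run crossing it, such as Rps12, could be missed. A counted run was present in 30 of the 57 genes (52.6%) and in 28.7% of the other genes of that table. The windows of 7 genes described here are shown because they carry, or lack, this run. Each covers 30 bases before the start and 20 after it, 5' to 3' on the strand of the gene, and capitals mark the run.
Rpl14: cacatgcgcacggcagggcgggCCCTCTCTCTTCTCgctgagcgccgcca
Rps6: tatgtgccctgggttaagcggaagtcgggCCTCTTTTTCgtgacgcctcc
Rplp2: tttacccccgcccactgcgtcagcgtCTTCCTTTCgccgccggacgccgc
Rps15a: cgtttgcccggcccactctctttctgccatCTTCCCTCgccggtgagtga
Rpl39: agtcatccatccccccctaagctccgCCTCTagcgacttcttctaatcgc
Rpl37: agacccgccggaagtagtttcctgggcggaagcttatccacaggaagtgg
Rps4x: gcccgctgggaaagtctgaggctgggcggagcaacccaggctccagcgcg
These windows lie at chr9:120571487-120571536 for Rpl14, chr4:86857348-86857397 for Rps6, chr7:141447621-141447670 for Rplp2, chr7:118116128-118116177 for Rps15a, chrX:37085203-37085252 for Rpl39, chr15:5116583-5116632 for Rpl37 and chrX:102189372-102189421 for Rps4x. The first 2 of the 7 lie on the plus and the minus strand, Rplp2 and Rpl37 on the plus strand, and Rps15a, Rpl39 and Rps4x on the minus strand. Other motifs were searched on both strands of the whole promoter of 300 bases, 250 before the start and 50 after it. CCGGAAG, the core site of the ETS family that includes GABPA, was found in 42.1% of the core genes and 9.86% of the other genes. ATGGCGG, a YY1 site, was found in 15.8% and 4.66%, the GC box GGGCGG in 61.4% and 38.1%, the TATA sequence TATAAA in 10.5% and 15.7%, and the E box CAGCTG in 3.51% and 18.3%. The median log2 fold change, described in full later, was 0.34 in the 30 genes with a counted pyrimidine run. It was 0.37 in the 26 tested genes without a counted run and 0.36 in the 20 tested genes that the promoter table lacks. The ranges of these sets overlapped, from 0.17 to 0.55, 0.22 to 0.50 and 0.13 to 0.53.

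In the crypts the core genes formed a narrow band of high levels. TPM values are per length, so they can be compared between genes as far as the length used for each gene is right. With 1 GENCODE transcript taken per gene, the longest core transcripts were those of Rps15a (5179 bases) and Rps20 (3706 bases). These lengths need not be the ones behind the deposited TPM. Rps15a and Rps20 had mean levels of 88.1 and 252.7 TPM. Whether length lowered these values was not tested. The mean TPM over the 6 libraries had a median of 1513 over the 77 core genes, 1501 for the large subunit and 1686 for the small subunit, and 69 of the 77 lay between 500 and 3000 TPM. The highest was Rpl41, which encodes the shortest protein of the ribosome. Its TPM was 2553, 3890 and 3970 in WT and 3546, 4310 and 4367 in Mtg16-/-, with overlap. Rps2, a small subunit protein at the mRNA entry, had 1984, 2869 and 2990 TPM in WT and 2847, 3092 and 3371 TPM in Mtg16-/-, again with overlap. Rps26, which sits at the mRNA exit, had 1966, 2666 and 2661 TPM in WT and 3054, 2927 and 3695 TPM in Mtg16-/-, where all 3 values exceeded those of WT. The order of the core genes by level was nearly the same in every library: across the 76 core genes above 0, Spearman's rho between any 2 libraries lay between 0.978 and 0.993. This is a correlation across genes of 1 family, which are not independent replicates.

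The 7 core genes under 500 TPM included several whose sequence is repeated elsewhere in the table. The 4 pairs described next show how the authors' read assignment divided a gene and its copy. Rps27, a zinc finger protein of the small subunit on chromosome 3, had only 2.41, 3.47 and 5.80 TPM in WT and 1.75, 5.47 and 7.37 TPM in Mtg16-/-. The row Rps27rt, at chr9:114982366-114982739, had 1820, 2376 and 2323 TPM in WT and 2460, 2556 and 2961 TPM in Mtg16-/-. Their coding sequences (GENCODE vM21, GRCm38) are 255 bases long and 100% identical, so reads from the coding part cannot be told apart. The shared sequence is shown to make this visible.
Rps27 and Rps27rt: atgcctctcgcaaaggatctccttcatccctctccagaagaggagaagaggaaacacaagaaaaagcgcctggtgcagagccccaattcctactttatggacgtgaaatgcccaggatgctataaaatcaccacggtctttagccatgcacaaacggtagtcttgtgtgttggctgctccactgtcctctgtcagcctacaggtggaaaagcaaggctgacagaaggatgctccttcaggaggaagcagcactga
Rpl26, a large subunit protein near the peptide exit tunnel, was listed at 0 in all 6 libraries. Gm15772, a row outside the membership rule and a transcribed pseudogene at chr5:3236390-3236928, had 1324, 1750 and 1724 TPM in WT and 1834, 1953 and 2338 TPM in Mtg16-/-. Its sequence differs from the 438 coding bases of Rpl26 by C177T and T288C, counted from 1 at the first base of the start codon with the base of Rpl26 first. Rpl30, a large subunit protein on chromosome 15, had 15.9, 14.2 and 31.5 TPM in WT and 23.4, 17.6 and 23.0 TPM in Mtg16-/-, while the pseudogene row Gm12191 at chr11:49678620-49679143 had 1074, 1328 and 1383 TPM in WT and 1538, 1542 and 1874 TPM in Mtg16-/-. The single difference over 348 coding bases is G96A. Rpl34, also of the large subunit, had a mean of 42.5 TPM and Rpl34-ps1, at chr6:71124589-71125001, a mean of 1050 TPM, with the differences T132C and C318G over 354 bases. The stretches around the first difference of each pair show how little separates the rows, and capitals mark the differing base.
Rpl26, coding bases 157 to 197: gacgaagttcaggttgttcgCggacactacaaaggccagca
Gm15772: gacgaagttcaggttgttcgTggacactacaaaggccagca
Rpl30, coding bases 76 to 116: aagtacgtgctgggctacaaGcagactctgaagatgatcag
Gm12191: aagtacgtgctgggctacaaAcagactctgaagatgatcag
Rpl34, coding bases 112 to 152: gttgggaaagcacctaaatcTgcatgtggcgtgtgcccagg
Rpl34-ps1: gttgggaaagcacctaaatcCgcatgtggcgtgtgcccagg
In each of these 4 pairs the row of the copy held nearly all of the TPM, and the level of the parent gene alone is therefore uncertain. Copies of at least 90% identity over at least 80% of the coding sequence were found in the table for 19 of the 77 core genes. For the other 15 the copies had a mean of at most 21.8 TPM, apart from Rps15a-ps6, described later. When each parent was added to its copies, Rps27 reached 1823, 2379 and 2328 TPM in WT and 2462, 2561 and 2968 TPM in Mtg16-/-, and Rpl30 reached 1090, 1342 and 1414 TPM in WT and 1561, 1560 and 1897 TPM in Mtg16-/-. Both sums were higher in every Mtg16-/- library than in any WT library, whereas the rows of Rps27 and Rpl30 alone overlapped. The sum of Rpl34 and its copy was 760, 1154 and 1024 TPM in WT and 1060, 1208 and 1351 TPM in Mtg16-/-, and still overlapped. The sum of Rpl26 is the row Gm15772 itself, which was without overlap.

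**Figure D1:**
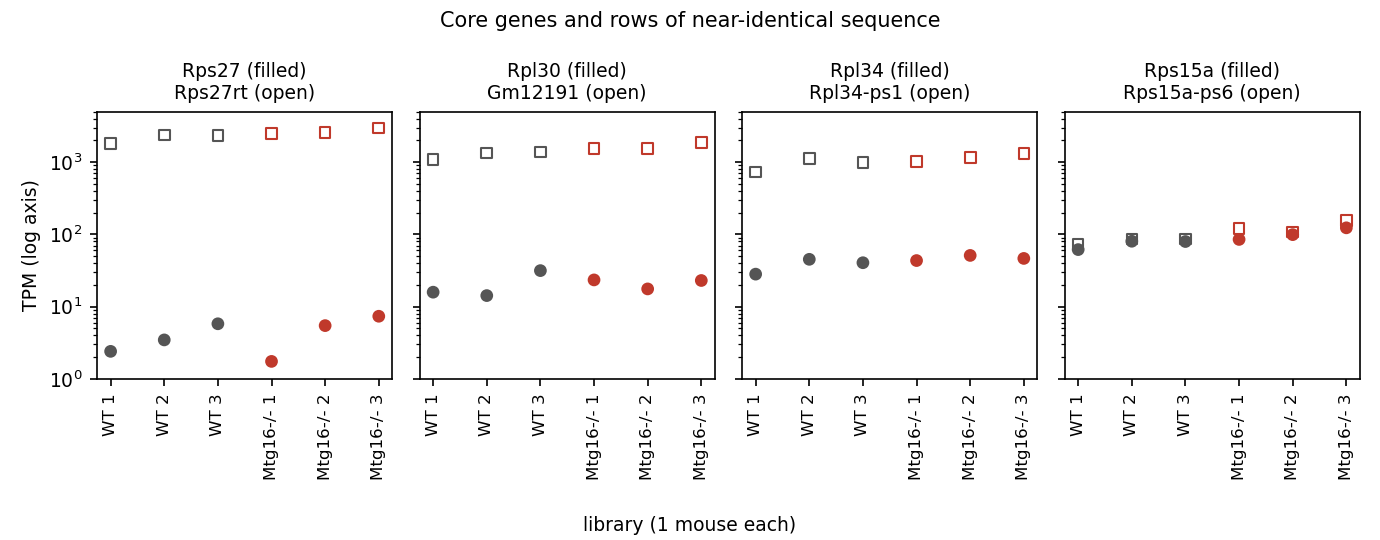
TPM on a log axis in each of the 6 libraries for 4 core genes (filled circles) and a row of near-identical sequence (open squares), WT in grey and Mtg16-/- in red. Rps27, Rpl30 and Rpl34 lie far under their copies in every library, while Rps15a and Rps15a-ps6 lie side by side.

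The core genes had higher mean levels in Mtg16-/- than in WT crypts, and none of them passed the test. Genes with a mean of at least 1 TPM were tested with limma on log2(TPM + 1), and a gene was called at a Benjamini-Hochberg adjusted p under 0.1 over the 12268 genes tested. This filter kept 90 of the 94 members. The others, Rpl26 and the paralogs Rpl3l, Rpl10l and Rpl39l, were listed at 0 in every library. The log2 fold change of Mtg16-/- over WT was above 0 for 76 of the 76 tested core genes, against 46.4% of all genes tested. Its median was 0.36 over the core genes, 0.35 for the large and 0.37 for the small subunit, with a range from 0.13 to 0.55, while the median over all genes tested was -0.03. No member was called, and 4 of the 12268 genes were (0.0326%). The lowest adjusted p among core genes was 0.270 from limma, for Rps20. With array weights, which give libraries that stand apart less weight, 4 members were called, Rpl14-ps1, Rps15a-ps4, Rps15a-ps6 and Rpl22l1, none of them a core gene, where 6.97% of all genes tested were called. An unadjusted p under 0.05 was reached by 8 of the 76 core genes and 13 of the 90 members, all higher in Mtg16-/-, where 6.53% of all genes tested were higher and 8.05% lower at that limit. All 3 Mtg16-/- values exceeded all 3 WT values for 44 of the 76 core genes and 49 of the 90 members, against 9.94% of all genes tested, and no member showed the opposite order, which 11.1% of all genes did. Because the core genes vary together, as described next, these counts are not independent observations. With 3 mice against 3, an exact two-sided permutation test of a single gene cannot give a p under 0.1.

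**Figure D2:**
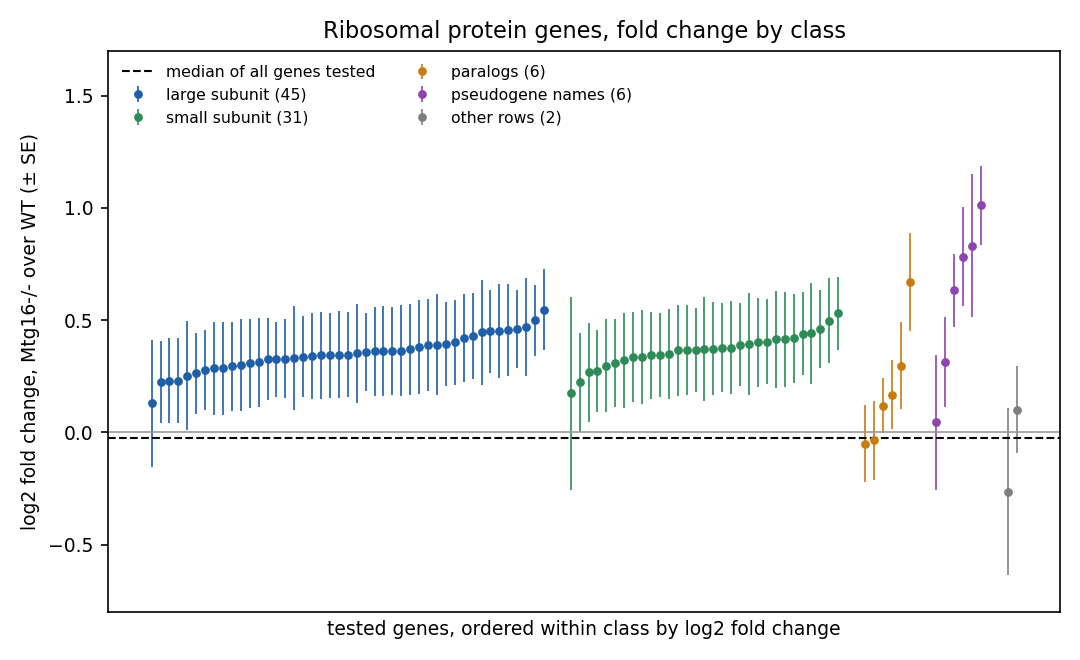
Log2 fold change of Mtg16-/- over WT with its standard error for the 90 tested members, ordered within each class, with a dashed line at the median of all genes tested (-0.03). The 76 core genes all lie above 0, between 0.13 and 0.55, while the paralogs and pseudogene rows spread from -0.05 to 1.01. The other rows lie at -0.26 (Rpl32l), the lowest of the members, and 0.10 (Rpl37rt).

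In the core genes, the difference between the genotypes was mostly a shift that these genes shared within each library. The core genes together made up 80437, 109926 and 114277 TPM in WT and 115992, 126628 and 144166 TPM in Mtg16-/-. In the deposited TPM the groups did not overlap, but the lowest Mtg16-/- library exceeded the highest WT library by a ratio of only 1.02. The means were 101547 ± 18411 TPM (SD, n = 3) in WT and 128928 ± 14227 TPM (SD, n = 3) in Mtg16-/-, a ratio of 1.27. For each gene the deviation of a library from the mean of the 6 was taken on the log2 scale. Its median over the core genes was -0.50, -0.05 and 0.01 in WT replicates 1, 2 and 3 and 0.04, 0.17 and 0.36 in Mtg16-/- replicates 1, 2 and 3. WT replicate 1 was the lowest of the 6 libraries for 73 of the 76 genes, and Mtg16-/- replicate 3 the highest for 72. Without WT replicate 1 the median log2 fold change was 0.21 in place of 0.36, it was above 0 for 74 of the 76 genes, and the ratio of the summed TPM was 1.15. For 62 of the 76 genes the log2 fold change over all 6 libraries was more than 1.5 times the one without WT replicate 1. Subtracting the median deviation of each library removed 88.7% of the summed variance of the core genes and lowered the median SD between libraries from 0.29 to 0.06 on the log2 scale.

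**Figure D3:**
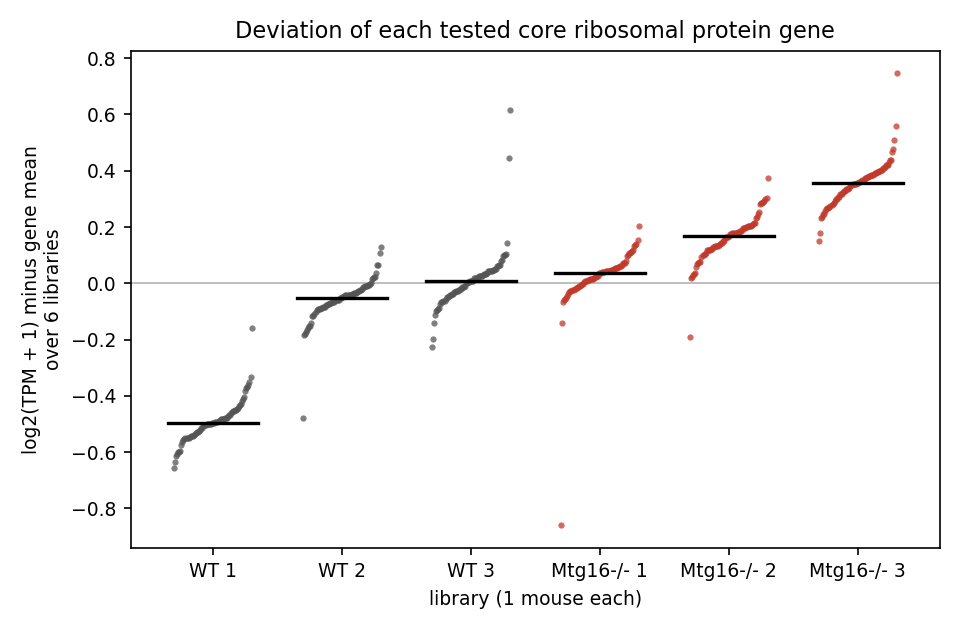
Deviation of log2(TPM + 1) from the mean over the 6 libraries for each of the 76 tested core genes, ordered within each library, with a black line at the median. The core genes of a library move as a block, from a median of -0.50 in WT replicate 1 to 0.36 in Mtg16-/- replicate 3. WT replicate 3 and Mtg16-/- replicate 1 are at nearly the same height.

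Cell type markers moved across the same libraries. The summed TPM of 16 enterocyte markers was 40497, 14231 and 17534 in WT and 14633, 8336 and 7243 in Mtg16-/-, so WT replicate 1, the library lowest in ribosomal protein mRNA, was the highest in enterocyte mRNA, and Mtg16-/- replicate 3 was the lowest in enterocyte mRNA and the highest in ribosomal protein mRNA. All 16 markers had a log2 fold change under 0, with a median of -1.17. Fabp1, the fatty acid binding protein of enterocytes, had 5065, 1642 and 2061 TPM in WT and 996, 411 and 660 TPM in Mtg16-/-. The 7 stem cell markers summed to 854, 1344 and 1478 TPM in WT and 1602, 2118 and 1837 TPM in Mtg16-/-, all 7 with a log2 fold change above 0 and a median of 0.66. The 9 Paneth cell markers summed to 15583, 27192 and 16801 TPM in WT and 39410, 29747 and 30706 TPM in Mtg16-/-, with 8 of the 9 log2 fold changes above 0 and a median of 0.96. The log2 fold change was above 0 for 10 of 10 enteroendocrine markers (median 0.50), 9 of 12 proliferation genes (0.13), 2 of 7 goblet cell markers (-0.43), 0 of 5 tuft cell markers (-0.50) and 0 of 8 lymphocyte markers (-0.74). The lymphocyte sum ranged from 153 to 466 TPM in WT and from 79.5 to 235 TPM in Mtg16-/-, and the sum of 13 stromal, endothelial and blood genes from 14.1 to 46.3 TPM and from 23.3 to 49.4 TPM. None of these markers was called. Without WT replicate 1 the medians were -0.71 for enterocyte, 0.39 for stem cell, 0.68 for Paneth cell, -0.32 for lymphocyte and -0.05 for proliferation genes, of which 5 of 12 were then above 0. Their part in the ribosomal protein difference was not tested, and in bulk crypts more cells of a type and more mRNA per cell cannot be told apart. TPM also divides a fixed total, so the large rows matter: 3 non-coding RNAs, the ribosomal RNA precursor Rn45s and the RNAs Rmrp and Rpph1, took between 79586 and 125632 TPM of each library. These rows held 116146 TPM in WT replicate 3 and 86029 TPM in Mtg16-/- replicate 1. With them removed and the rest rescaled to the same total, the difference in the core sum was 29220 TPM in place of 27380 TPM. Mtg16-/- replicate 1 then lay under WT replicate 3, so the core sums of the groups overlapped.

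**Figure D4:**
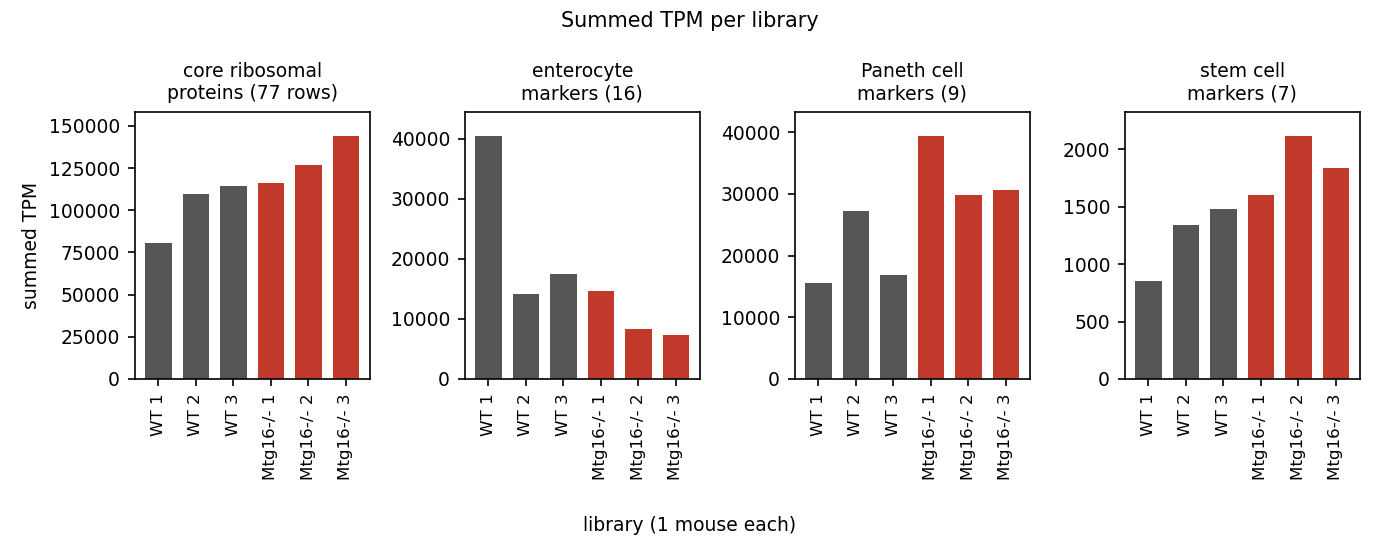
Summed TPM, of the 77 core ribosomal protein genes and of enterocyte, Paneth cell and stem cell markers in each library, WT in grey and Mtg16-/- in red, with every axis starting at 0. The core sum is lowest in WT replicate 1 (80437 TPM), where the enterocyte sum is highest (40497 TPM).

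The subunits kept step. The summed TPM of the large subunit genes divided by that of the small subunit genes was 1.35, 1.34 and 1.32 in WT and 1.34, 1.31 and 1.34 in Mtg16-/-, a mean of 1.34 ± 0.0106 (SD, n = 3) and 1.33 ± 0.0164 (SD, n = 3), so the groups overlapped. The genes of the P stalk, which recruits translation factors to the large subunit, gave values typical of the family. Rplp0 had 1461, 1998 and 2005 TPM in WT and 2065, 2290 and 2636 TPM in Mtg16-/-, a log2 fold change of 0.36 (SE 0.20, adjusted p = 0.429 from limma). Rplp1 had 1872, 2721 and 2701 TPM in WT and 2788, 3086 and 3604 TPM in Mtg16-/-. Both had all Mtg16-/- values above those of WT, and Rplp2, with 1043, 1397 and 1490 TPM in WT and 1437, 1749 and 1837 TPM in Mtg16-/-, overlapped. Rpl5 and Rpl11 bind the 5S ribosomal RNA and, when free of the ribosome, the p53 regulator MDM2. Rpl5 had 573, 765 and 832 TPM in WT and 780, 930 and 1072 TPM in Mtg16-/-, and Rpl11 had 1118, 1550 and 1612 TPM in WT and 1574, 1696 and 1931 TPM in Mtg16-/-. Mtg16-/- replicate 1 lay within the WT range for both. Rps6, the ribosomal protein phosphorylated downstream of mTOR, had 913, 1198 and 1332 TPM in WT and 1283, 1447 and 1603 TPM in Mtg16-/-. Rpsa, a small subunit protein also known as a laminin receptor, had 844, 1187 and 1273 TPM in WT and 1232, 1354 and 1537 TPM in Mtg16-/-. The log2 fold change was 0.34 for both (SE 0.19 and 0.20), and 1 Mtg16-/- value of each fell inside the WT range. Without WT replicate 1 the log2 fold change was 0.21 for Rplp0, 0.19 for Rps6 and 0.15 for Rpsa.

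The core genes with the lowest p were not the most abundant ones. Rps20, a small subunit protein on chr4:3831584-3835655, had 168, 219 and 236 TPM in WT and 268, 305 and 320 TPM in Mtg16-/-, a log2 fold change of 0.53 (SE 0.16, adjusted p = 0.270 from limma). Rpl22, a large subunit protein on chr4:152324436-152334082, had 132, 163 and 178 TPM in WT and 194, 227 and 246 TPM in Mtg16-/-, a log2 fold change of 0.50 (SE 0.16, adjusted p = 0.274 from limma). All Mtg16-/- values of both exceeded those of WT, and without WT replicate 1 the log2 fold changes were 0.38 and 0.38. Rpl39, a short protein of the exit tunnel encoded at chrX:37082518-37085222, had 817, 980 and 969 TPM in WT and 1198, 1234 and 1637 TPM in Mtg16-/-. Its log2 fold change of 0.55 (SE 0.18, adjusted p = 0.282 from limma) was the highest of the core genes, and its promoter window is among those shown above. Rps4x, the X-linked small subunit protein, had 1205, 1533 and 1646 TPM in WT and 1886, 1955 and 2324 TPM in Mtg16-/-, a log2 fold change of 0.50 (SE 0.19). The 4 core genes on the X chromosome had a median log2 fold change of 0.48 and the 72 on autosomes one of 0.36, with the 4 inside the autosomal range except Rpl39. Rpl37, of the large subunit, had 366, 515 and 477 TPM in WT and 586, 571 and 705 TPM in Mtg16-/-, and Rps15a, of the small subunit, 61.6, 80.3 and 79.6 TPM in WT and 85.1, 99.1 and 123 TPM in Mtg16-/-. Both had a log2 fold change of 0.46 (SE 0.17) and no overlap between the groups. At the other end, the abundant Rpl41 and Rps2 had log2 fold changes of 0.25 (SE 0.24) and 0.27 (SE 0.22), and of 0.05 and 0.08 without WT replicate 1. The other 55 tested core genes lay between 0.22 and 0.47, with adjusted p from limma between 0.324 and 0.639, and 32 of them had no overlap.

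Ribosomal protein mRNAs are short and abundant, so other genes of like length and level were set beside them. By the GENCODE transcript taken for each gene, the core transcripts had a median length of 832 bases, against 2854 bases for other genes. Other genes of at most 500 bases had a median log2 fold change of 0.14 (265 genes) and those over 500 and up to 1000 bases of 0.02 (756 genes), where core genes of the same lengths had 0.34 (12 genes) and 0.36 (41 genes). The 219 other genes with a mean of at least 500 TPM had a median of -0.00, with 48.4% above 0. Within the core genes Spearman's rho of the log2 fold change was 0.14 with length and -0.10 with mean TPM over 76 genes, which share libraries. Their lengths ran from 345 to 5179 bases and their mean levels from 4.38 to 3773 TPM.

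Paralogs, which replace or resemble a core protein, gave values on both sides of 0. Each was set against its core partner as a ratio of TPM within a library, which does not depend on how libraries are scaled. Rpl36al, an autosomal gene for a protein nearly identical to the X-linked Rpl36a, had 563, 736 and 713 TPM in WT and 623, 573 and 767 TPM in Mtg16-/-. Rpl36a had 651, 895 and 975 TPM in WT and 1020, 1064 and 1352 TPM in Mtg16-/-. Their log2 fold changes were -0.04 (SE 0.18) and 0.46 (SE 0.20), and the ratio of Rpl36al to Rpl36a was 0.864, 0.822 and 0.731 in WT and 0.611, 0.539 and 0.567 in Mtg16-/-, without overlap. Rpl7l1, a relative of Rpl7, had 53.0, 75.8 and 72.4 TPM in WT and 57.2, 61.7 and 74.0 TPM in Mtg16-/-, a log2 fold change of -0.05 (SE 0.17), while Rpl7 had 1301, 1654 and 1664 TPM in WT and 1765, 1814 and 2269 TPM in Mtg16-/-. The ratio of Rpl7l1 to Rpl7 was 0.0407, 0.0458 and 0.0435 in WT and 0.0324, 0.0340 and 0.0326 in Mtg16-/-, also without overlap. Such an order was common: relative to the median core gene, 37.0% of all genes tested lay lower in Mtg16-/- without overlap. Rps4l, an autosomal relative of Rps4x that RefSeq lists as a transcribed pseudogene, had 70.0, 66.9 and 81.1 TPM in WT and 84.4, 74.9 and 77.1 TPM in Mtg16-/-. Rps27l, a relative of Rps27 known as a p53 target, had 300.5, 330 and 281 TPM in WT and 312, 309 and 410 TPM in Mtg16-/-. The ratios of Rps4l to Rps4x and of Rps27l to Rps27rt overlapped between the genotypes.

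Rpl22l1 was the paralog with the highest log2 fold change. This gene, at chr3:28805508-28807424, encodes a protein that can take the place of Rpl22 and is known to be held down by it. It had 168, 203 and 167 TPM in WT and 206, 301 and 372 TPM in Mtg16-/-, a log2 fold change of 0.67 (SE 0.22, adjusted p = 0.279 from limma). All Mtg16-/- values exceeded those of WT, with replicate 1 only just above WT replicate 2. Rpl22 was also higher in mean, and the ratio of Rpl22l1 to Rpl22 was 1.28, 1.24 and 0.942 in WT and 1.06, 1.33 and 1.51 in Mtg16-/-, with overlap.

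Rows named as pseudogenes held the 3 highest log2 fold changes of all members, those of Rpl14-ps1, Rpl31-ps12 and Rps15a-ps4, at mean levels of 21.8, 14.7 and 18.7 TPM. All 6 had a log2 fold change above 0, with a median of 0.71, and none was called. Rpl14-ps1, a processed copy of Rpl14 at chr7:45324958-45325651, had 13.2, 12.5 and 16.6 TPM in WT and 23.5, 33.1 and 31.9 TPM in Mtg16-/-. Its log2 fold change of 1.01 (SE 0.18, adjusted p = 0.141 from limma) came with the lowest p of the 94 members, and it was 0.97 without WT replicate 1. Rpl14 itself, a large subunit protein, had 800, 1057 and 1091 TPM in WT and 1136, 1254 and 1498 TPM in Mtg16-/-, a log2 fold change of 0.40 (SE 0.19). The ratio of Rpl14-ps1 to Rpl14 was 0.0164, 0.0118 and 0.0152 in WT and 0.0207, 0.0264 and 0.0213 in Mtg16-/-, without overlap. The coding sequence of Rpl14 and the row of its copy are 98.9% identical, so the assignment of reads between them is uncertain. Rps15a-ps6, at chr11:6172508-6173331, had 72.2, 85.9 and 86.8 TPM in WT and 121, 107 and 156 TPM in Mtg16-/-, a log2 fold change of 0.63 (SE 0.16). Rps15a-ps4, at chr4:132219893-132220589, had 16.1, 12.4 and 11.6 TPM in WT and 16.9, 28.2 and 27.1 TPM in Mtg16-/-, a log2 fold change of 0.78 (SE 0.22). These rows match Rps15a over its coding sequence with 98.7% and 97.5% identity, and their ratios to Rps15a overlapped between the genotypes. In all, 3 of the 8 ratios of a paralog or pseudogene to its core gene had no overlap. Scaled to the median core gene, 37.0% of all genes tested lay lower and 1.08% higher without overlap.

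**Figure D5:**
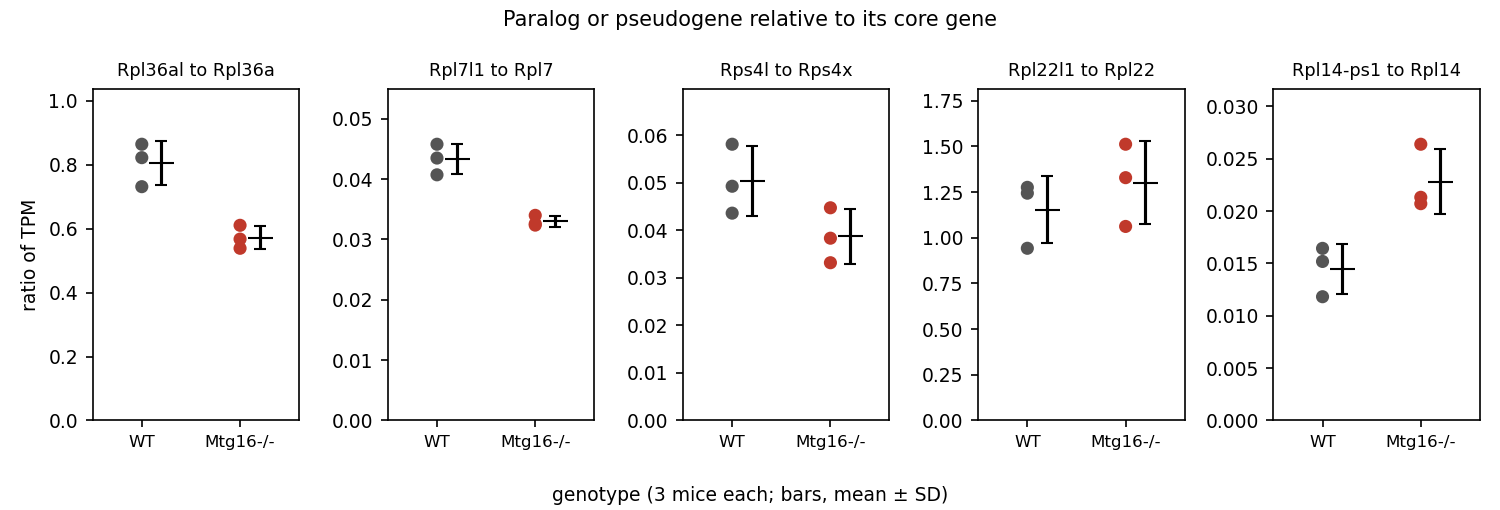
Ratio of the TPM of a paralog or pseudogene row to that of its core gene in each mouse (points), with the mean and SD of each genotype, on axes that start at 0. Rpl36al and Rpl7l1 are lower and Rpl14-ps1 is higher relative to their core genes in all 3 Mtg16-/- mice than in any WT mouse, and the other 2 ratios overlap.

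When the libraries were rescaled so that the median core gene had the same level in each, these 3 rows had the lowest p of the members. The log2 fold change relative to the core genes was 0.65 (SE 0.20) for Rpl14-ps1, -0.40 (SE 0.13) for Rpl36al and -0.42 (SE 0.15) for Rpl7l1, each with an adjusted p of 0.220 from limma. They were the only members at an unadjusted p under 0.05 in that fit, where 22.4% of all genes tested reached it. No member was called in it, against 0.0815% of all genes. Of the 76 core genes, 9 lay higher and 8 lay lower relative to the median core gene in all 3 Mtg16-/- libraries than in any WT library. Over all genes tested these shares were 1.08% and 37.0% in the rescaled values, a background that the rescaling itself moves downward, and the median SD that remained among the core genes was 0.06.

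Other genes of translation were examined from lists that do not overlap with the members. Some ribosomal proteins have symbols outside the rule. Rack1, a scaffold on the small subunit, had 909, 1360 and 1347 TPM in WT and 1392, 1559 and 1784 TPM in Mtg16-/-, a log2 fold change of 0.41 (SE 0.21). Fau, a fusion of a ubiquitin-like protein and a small subunit protein, had a log2 fold change of 0.05 (SE 0.16). The 8 elongation factors and related genes had a median of 0.23 with 6 of the 8 above 0, and without WT replicate 1 a median of 0.09 with 4 of the 8. Eef2, the factor that moves the ribosome along the mRNA, had 1368, 1477 and 1738 TPM in WT and 2027, 2080 and 1989 TPM in Mtg16-/-, a log2 fold change of 0.42 (SE 0.17, adjusted p = 0.318 from limma). Eef1b2, an exchange factor for EEF1A, had 308, 405 and 468 TPM in WT and 433, 529 and 581 TPM in Mtg16-/-, with overlap.

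Of the 37 initiation factors, 24 had a log2 fold change above 0 and 13 under 0, with a median of 0.07 and 0 called by limma, and 19 were above 0, with a median of 0.01, without WT replicate 1. At an unadjusted p under 0.05 from limma, 5 were higher and 2 lower in Mtg16-/-, against 6.53% and 8.05% of all genes tested. Eif4b, a partner of the helicase that unwinds the mRNA start, had 210, 256 and 281 TPM in WT and 334, 370 and 348 TPM in Mtg16-/-, a log2 fold change of 0.50 (SE 0.14, adjusted p = 0.263 from limma). Eif3m, a subunit of EIF3, had 93.5, 115 and 122 TPM in WT and 136, 160 and 174 TPM in Mtg16-/-, a log2 fold change of 0.51 (SE 0.15). Both had no overlap between the groups. The 24 regulators of ribosomal protein genes and of their mRNAs were evenly split, 12 above 0 and 12 under 0, with a median of -0.01. Among them Myc, the transcription factor that drives ribosome production, had 32.6, 44.8 and 57.2 TPM in WT and 73.9, 105 and 87.2 TPM in Mtg16-/-, a log2 fold change of 0.99 (SE 0.22, adjusted p = 0.224 from limma). Rptor, the RAPTOR subunit of mTOR complex 1, had 25.1, 26.1 and 26.7 TPM in WT and 19.8, 20.98 and 15.7 TPM in Mtg16-/-, a log2 fold change of -0.46 (SE 0.14, adjusted p = 0.272 from limma). Both were without overlap, in opposite directions.

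The proteins of the mitochondrial ribosome, which are encoded by a separate family of nuclear genes, lay on both sides of 0. Of 78 tested genes, 32 had a log2 fold change above 0 and 46 under 0, with a median of -0.04, and 0 were called by limma. At an unadjusted p under 0.05, 1 was higher and 3 lower, against 6.53% and 8.05% of all genes tested. Without WT replicate 1, 20 of the 78 were above 0, with a median of -0.12. Their summed TPM was 5228, 6204 and 6256 in WT and 5229, 5400 and 6360 in Mtg16-/-. Mrps9 had 46.7, 54.2 and 59.9 TPM in WT and 62.6, 70.8 and 74.0 TPM in Mtg16-/-, and Mrpl53 had 65.2, 90.8 and 80.7 TPM in WT and 63.7, 56.9 and 61.2 TPM in Mtg16-/-, the 2 lowest p of this list. Both were without overlap, Mrps9 higher and Mrpl53 lower in Mtg16-/-.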

How the data were processed

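Total RNA of isolated crypts was depleted of ribosomal RNA and sequenced in 6 libraries. The authors quantified genes with RSEM and deposited TPM per gene symbol. The submitters' processing notes name cutadapt 1.9.1, STAR 2.5.2a, RSEM 1.3.0, DESeq2 1.12.3 and mm10. TPM keeps no read number, so the depth is unknown, no counting interval is given and no count test was run. From the deposited TPM, log2(TPM + 1) was tested with limma 3.58.1 (R 4.3.3, intensity trend, no covariates) for genes whose TPM averaged 1 or more, at a Benjamini-Hochberg adjusted p under 0.1. The pseudocount understates changes of low genes. The calculation was tested on simulated data. The members and gene lists were chosen with earlier results of these data known, and no list was tested as a set. Named genes were the targeted gene, 7 fixed members, the 3 highest and lowest core genes, the 6 lowest p in each direction, tested paralogs, the 3 pseudogene rows of lowest p, their partners, members called with the replicate block, and the 2 lowest p of each other list. A gene of those lists is not reported here. No core gene was in the lower direction. Rpl34 and its copy, Fau, Fabp1 and the cell type genes were named in addition, after their values were seen. Positions and promoters are RefSeq GRCm38.p6, matched for 94 of 94 members, and transcripts are GENCODE vM21. Near-identical rows were found with blastn 2.17.0. Ratios between partners and the rescaling to core genes were added after the data were seen.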

Additional observations from a re-analysis of the deposited data

How the results depend on the processing

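Only TPM were at hand, so depth limits could not be stated. In the reported fit, p-values set the genotype difference against the spread among the 3 mice within each genotype, with information on spread shared across genes. The direction of the core median was kept under every alternative run, from 0.20 with array weights and 0.24 after quantile normalization to 0.46, and from 0.21 (without WT replicate 1) to 0.46 (without WT replicate 3) when 1 mouse was left out. The number of members called was 0 except with the replicate block (11 members, against 385 of 12268 genes called higher, 3.14%) and with array weights (4 members, against 6.97%). Whether the shared replicate numbers pair the mice is not known. After centring each group, mice that share a number correlated across genes with r of 0.429, 0.0753 and 0.237. These 3 values cannot decide it. With the block, 1201 of the 12268 genes tested were called in either direction. The members called with the block were Rpl14-ps1, Rps15a-ps6, Rps20, Rpl22, Rpl22l1, Rps15a, Rpl39, Rps4x, Rps15a-ps4, Rpl23 and Rpl36a, and with array weights Rpl14-ps1, Rps15a-ps4, Rpl22l1 and Rps15a-ps6. The 13 members at an unadjusted p under 0.05, all higher, were 8 without the filter (4.19% of all genes tested were higher at that limit), 59 with the replicate block (8.52%) and between 5 (without Mtg16-/- replicate 3, 4.58%) and 13 with a mouse left out, 7 without WT replicate 1 (5.36%) and 8 without Mtg16-/- replicate 2 (3.5%). The 49 members without overlap were 29 after quantile normalization, all higher, as were 12.9% of all genes tested. The difference in the summed core TPM ranged from 16830 (without WT replicate 1) to 33850 TPM (without Mtg16-/- replicate 1) against 27380, and was 19760 TPM without Mtg16-/- replicate 3. The cause was not tested for any of these.

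Some named genes turned direction, most of them near 0 but also Rps27rt, at 0.30 in the reported fit. The log2 fold change of Cbfa2t3 was 0.11 with array weights, 0.14 with the length and GC correction, and from -0.26 to 0.15 with a mouse left out, above 0 without WT replicate 2 (0.14) or Mtg16-/- replicate 3. That of Rpl30 was -0.32 with array weights and from -0.078 (without WT replicate 2) to 0.47 with a mouse left out, -0.0047 without WT replicate 1, and that of Rps27 was -0.12 with array weights, -0.10 with the length and GC correction, and from -0.16 (without Mtg16-/- replicate 3) to 0.65 with a mouse left out, -0.057 without WT replicate 1. Rpl7l1 was at 0.028 after quantile normalization and from -0.21 to 0.044 with a mouse left out, above 0 without WT replicate 2, WT replicate 3 or Mtg16-/- replicate 1. Rpl36al was at 0.052 after quantile normalization and from -0.16 to 0.054 with a mouse left out, above 0 without WT replicate 2, WT replicate 3 or Mtg16-/- replicate 2. With the length and GC correction Rps27l was at -0.041 and Rps27rt at -0.0081.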
